A study of Mus musculus with 3 samples.

Results

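Cathepsins are the proteases that break down proteins inside lysosomes and endosomes. The 10 mouse genes described here are Ctsa, Ctsb, Ctsc, Ctsd, Ctse, Ctsh, Ctsk, Ctsl, Ctss and Ctsz. They were chosen by gene name, and every gene probe on the array that carried 1 of these names was taken. This gave 12 probes of 39429, and 10 genes of 31896 gene names. Ctsa and Ctsd had 2 probes each and the other genes 1 each.

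The RNA came from 3 primary diffuse-type gastric cancers of mice aged 12 months with the genotype Atp4b-Cre+;Cdh1loxP/loxP;Trp53loxP/loxP. Each was set against 1 pool of 5 normal gastric mucosae from Atp4b-Cre-;Cdh1loxP/loxP;Trp53loxP/loxP mice of the same age, so the floxed alleles of Cdh1 and Trp53 are common to tumours and pool. Atp4b is a gene of acid-secreting parietal cells, and its promoter drives the Cre recombinase. Each tumour was labelled red (Cy5) on its own 2-colour array, with the pool in green (Cy3) on all 3 arrays. The mucosae, but not the tumours as far as the labels say, were freed of stroma by mechanical means in EDTA-2Na at 30 mM. Stroma removal, genotype and dye therefore run together with the comparison and cannot be told apart.

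Cathepsins are made as inactive precursors, carried to the lysosome by mannose 6-phosphate receptors and related sorting proteins, and activated in the acidic compartment. Cystatins and stefins, a family of small protein inhibitors, block those of the cysteine class. The family falls into 3 classes by catalytic residue: Ctsb, Ctsc, Ctsh, Ctsk, Ctsl, Ctss and Ctsz are cysteine proteases, Ctsd and Ctse are aspartic proteases, and Ctsa is a serine carboxypeptidase. Macrophages and other phagocytes are rich in lysosomal proteases, and Ctse is known as an endosomal protease of the gastric epithelium.

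Most of the cysteine members were higher in the tumours. A gene was called when limma's moderated test gave an adjusted p under 0.05 and the fitted difference was at least 2-fold. Ctss, Ctsc, Ctsk, Ctsh, Ctsz and Ctsl were called higher, 6 of the 7 cysteine members and 6 of 10 members in all, where 9.33% of the 19437 genes tested were called higher. Ctse was the 1 member called lower, where 9.68% of genes were. Ctsa, Ctsb and Ctsd were not called. In either direction 7 of 10 members were called, where 19.0% of genes were. The median log2 ratio of tumour over pool was 1.63 over the 10 members and 0.05 over all genes tested. Both channels were well above background on all arrays at the probe that stands for each member. Tumour and pool signals did not overlap for 8 of the 10 members, and they did not overlap for 62.7% of all genes. The exceptions were Ctsa and Ctsb.

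**Figure D1:**
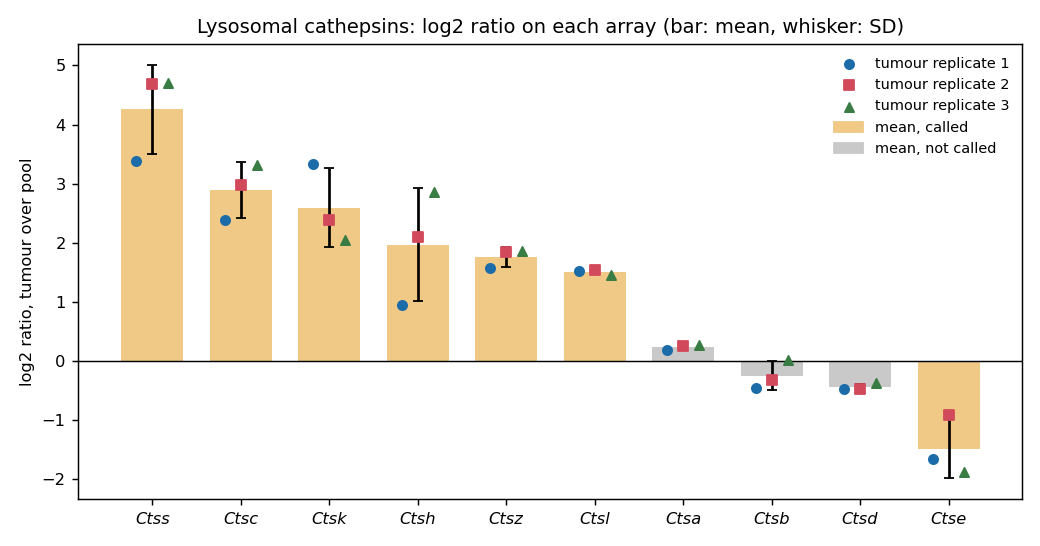
Log2 ratio of tumour over pool (vertical axis) for the 10 cathepsins on each of the 3 arrays, with bars for the mean and whiskers for the SD. Means run from 4.26 for Ctss to -1.49 for Ctse under loess normalisation; under median centring the mean of Ctse is 0.15, and those of Ctsb and Ctsd turn positive.

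Ctss encodes cathepsin S, an elastin-degrading enzyme that cuts the invariant chain of MHC class II molecules in antigen-presenting cells. It had the highest ratio of the members. Its normalised log2 signals were 12.80, 14.21 and 14.15 in tumour replicates 1, 2 and 3, against 9.42, 9.53 and 9.44 for the pool on the same arrays. Every tumour lay above the pool, and replicate 1 was the lowest tumour. The log2 ratio was 4.26 ± 0.76 (SD, n = 3 arrays), a 19.1-fold difference (limma, adjusted p = 0.00147), and 0.154% of genes tested had a higher ratio.

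Ctsc encodes dipeptidyl peptidase I, which activates the serine proteases of leukocyte granules. Its log2 signals were 10.95, 11.55 and 11.91 in tumour replicates 1, 2 and 3, against 8.56, 8.57 and 8.60 for the pool. The groups did not overlap, and replicate 3 was the highest tumour. The mean log2 ratio came to 2.90 ± 0.47 (SD, n = 3 arrays), or 7.44-fold (limma, adjusted p = 0.00137).

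Ctsk encodes cathepsin K, known for breaking down collagen in osteoclasts. Its log2 signals were 11.54, 10.18 and 9.83 in tumour replicates 1, 2 and 3, against 8.20, 7.79 and 7.78 for the pool. All tumours lay above the pool. Replicate 1 was the highest tumour, and Ctsk was the 1 member with its highest ratio on that array. The ratios were 3.34, 2.39 and 2.05, with a mean of 2.59 ± 0.67 (SD, n = 3 arrays), or 6.03-fold (limma, adjusted p = 0.00352).

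Ctsh encodes an aminopeptidase. Its log2 signals were 13.06, 14.14 and 14.71 in tumour replicates 1, 2 and 3, against 12.10, 12.04 and 11.85 for the pool. All tumours lay above the pool, and replicate 3 was the highest. The log2 ratio was 1.97 ± 0.96 (SD, n = 3 arrays), or 3.91-fold (limma, adjusted p = 0.0165), with the largest SD of a ratio among the 10 members. The call depended on which array was left out: it was lost without replicate 2, at 1.90 (limma, adjusted p = 0.0666), and without replicate 3, at 1.52 (limma, adjusted p = 0.0571), and was kept without replicate 1, at 2.47 (limma, adjusted p = 0.00668).

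Ctsz encodes a carboxypeptidase, also named cathepsin X. Its log2 signals were 12.96, 13.28 and 13.10 in tumour replicates 1, 2 and 3, against 11.39, 11.43 and 11.24 for the pool. The tumours lay close together and all above the pool. Over the arrays the log2 ratio averaged 1.76 ± 0.16 (SD, n = 3 arrays), or 3.38-fold (limma, adjusted p = 0.00106).

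Ctsl encodes cathepsin L, an endopeptidase with a broad range of substrates. Its log2 signals were 12.91, 12.98 and 12.99 in tumour replicates 1, 2 and 3, against 11.38, 11.45 and 11.54 for the pool. The tumours were nearly equal, and none overlapped the pool. Their log2 ratio was 1.51 ± 0.04 (SD, n = 3 arrays), or 2.84-fold (limma, adjusted p = 0.000986).

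Ctsb encodes cathepsin B, which acts both within chains and at their carboxyl ends, and it was the cysteine member that was not called. Its log2 signals were 13.54, 13.72 and 14.04 in tumour replicates 1, 2 and 3, against 13.99, 14.04 and 14.01 for the pool. The groups overlapped, since replicate 3 reached the pool. Its mean log2 ratio was -0.25 ± 0.25 (SD, n = 3 arrays), with a 95% interval of -0.59 to 0.09 (limma, adjusted p = 0.170). Spike-in centring gave 0.55, without a call. With median centring it was 1.38 and was called higher (limma, adjusted p = 0.00221).

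Ctsa encodes the serine carboxypeptidase also known as protective protein, which holds the lysosomal enzymes Glb1 and Neu1 in a complex. Its log2 signals at the brighter probe were 13.43, 13.60 and 13.76 in tumour replicates 1, 2 and 3, against 13.25, 13.35 and 13.49 for the pool. The groups overlapped. At this probe the log2 ratio was 0.23 ± 0.05 (SD, n = 3 arrays; limma, adjusted p = 0.0902), with a 95% interval of -0.002 to 0.46. Under median centring it was 1.80 and was called.

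Ctsd encodes the main aspartic protease of lysosomes. Its log2 signals at the brighter probe were 14.08, 14.13 and 14.27 in tumour replicates 1, 2 and 3, against 14.56, 14.61 and 14.65 for the pool. All tumours lay below the pool. The log2 ratio was -0.45 ± 0.06 (SD, n = 3 arrays). It passed the adjusted p (limma, 0.0175) but was under 2-fold, so it was not called. On leaving out an array the adjusted p was 0.0573 to 0.0871 (limma). Spike-in centring gave 0.43, without a call. With median centring the ratio was 1.26 and was called higher (limma, adjusted p = 0.00128).

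Ctse encodes cathepsin E, an aspartic protease of the gastric epithelium. Its log2 signals were 12.91, 13.62 and 12.97 in tumour replicates 1, 2 and 3, against 14.57, 14.55 and 14.84 for the pool. All tumours lay below the pool, and replicate 2 was the nearest to it. The log2 ratio was -1.49 ± 0.50 (SD, n = 3 arrays), a 2.80-fold lower signal (limma, adjusted p = 0.00742). It was -0.68 with spike-in centring, where it was not called (limma, adjusted p = 0.0792), and 0.15 with median centring.

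**Figure D2:**
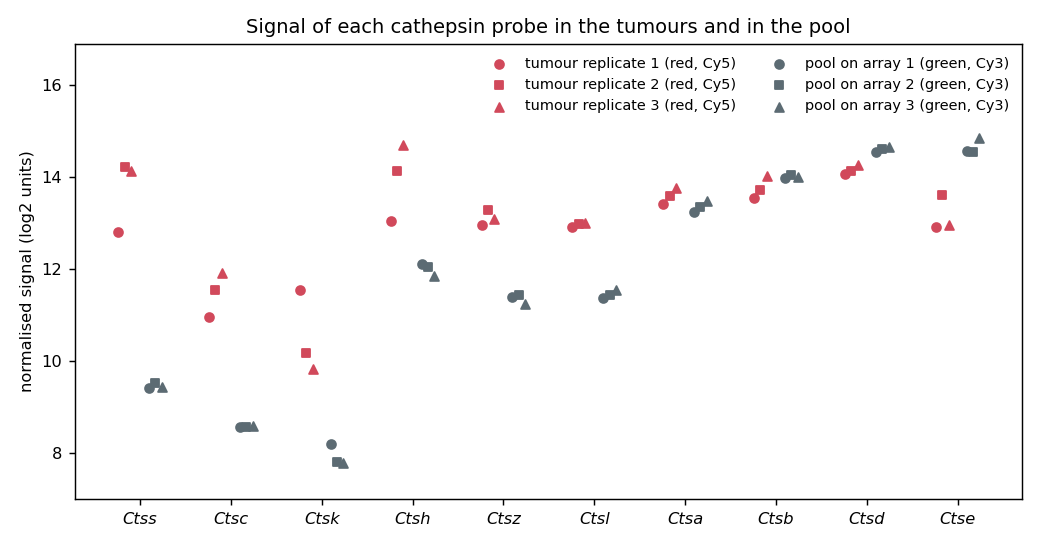
Normalised log2 signal (vertical axis) of each cathepsin in the 3 tumours (red channel, left of each pair) and in the pool on the 3 arrays (green channel, right). The tumours lie above the pool for Ctss, Ctsc, Ctsk, Ctsh, Ctsz and Ctsl and below it for Ctsd and Ctse under loess normalisation, while Ctsa and Ctsb overlap; under median centring the mean ratios of Ctsb, Ctsd and Ctse are positive. Levels of different genes come from different probes and are not compared.

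Ordered by ratio, Ctss did not overlap Ctsc over the 3 arrays. Ctsc overlapped Ctsk, Ctsk overlapped Ctsh, and Ctsh overlapped Ctsz, so the order of these genes is not settled. Ctsh ran from 0.95 to 2.85, which also takes in Ctsl at 1.46 to 1.53, so the order of Ctsh and Ctsl is not settled either. Ctsz, Ctsl and Ctsa each stood apart from the next gene below, Ctsb and Ctsd overlapped, and Ctse stood apart below them. The ratio was lowest on array 1 for 6 members and highest on array 3 for 7. The median of the members was 1.24, 1.69 and 1.66 on arrays 1, 2 and 3. The SD between tumours exceeded the SD of the pool between arrays for 9 of the 10 members. This is not particular to them: over all genes bright in both channels the median SD was 0.22 for tumours and 0.07 for the pool.

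Probes carrying the same gene name could be set side by side for 2 members. The Ctsd probes differ in position. Their sequences are shown because their ratios differ under loess normalisation. The first is given as its leading bases. The second is given whole, since its genome span of 1659 bases means that it crosses at least 1 intron. Per the file headers the build is mm9, and both lie on the minus strand: chr7:149561962-149562021 for the brighter probe and chr7:149566847-149568505 for the other. No base is marked in capitals here.
Ctsd, brighter probe: gaaggagcaagaggacagaagcaaaactat
Ctsd, other probe: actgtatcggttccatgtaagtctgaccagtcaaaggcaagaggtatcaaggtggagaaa

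The brighter Ctsd probe gave -0.45, as above. The other gave -0.20, 0.04 and 0.16 on arrays 1, 2 and 3, with a mean of 0.00 (limma over probes, adjusted p = 0.982). Under loess the brighter probe minus the other was -0.28, -0.53 and -0.54, a mean of -0.45 ± 0.15 (SD, n = 3 arrays), of 1 sign on every array. With spike-in centring the brighter probe gave 0.43 and the other 0.36, and with median centring 1.26 and 1.19. Each of these centrings shifts all probes of an array equally, so they give the same difference, with the brighter probe higher. It was the lower with Agilent's processed signals (-0.50 against 0.01) and an offset of 0 (-0.30 against 0.04), as with loess. The sign of the difference thus depends on the scaling. The dimmer Ctsa probe had a ratio of 0.10 (limma over probes, adjusted p = 0.346), against 0.23 at the brighter. Its pool signal was not well above background on any array. Over all 24170 probes kept, 17.6% were called, 8.44% higher and 9.11% lower; of the 12 cathepsin probes, 6 were called higher and 1 lower.

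Probe positions of the members with the highest and the lowest ratio, and of Ctsk beside Ctss, follow the mm9 build of the file headers, without exon or UTR assignment. Ctss lies at chr3:95360245-95360304 and Ctsk at chr3:95313165-95313224, both on the plus strand, and Ctse at chr1:133571990-133572049, where the probe is on the plus strand too. Ctsk and Ctss are adjacent genes in RefSeq order on that chromosome. Their neighbours were Setdb1, with a log2 ratio of 0.54, 4930558C23Rik with -0.14, Arnt with 0.24, Golph3l with 0.32 and Ensa with 0.41. None of these 5 was called, and Hormad1 was not tested.

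Promoter sequence from RefSeq (GRCm38.p6), running from 250 bases before to 50 after the start, was available for 7 of the 10 genes: Ctsa, Ctsc, Ctsd, Ctsk, Ctsl, Ctss and Ctsz. The windows below are shown for the E-box type letters TCACGTGA in Ctsa and Ctsd and the purine-rich letters GAGGAAGT in Ctsc and Ctss. Capitals mark matches on either strand to those motifs, and in Ctss also to the interferon response core, a pair of GAAA stretches with any 2 bases between them. Positions are chr2:164833748-164833784 plus strand for Ctsa, chr7:142387879-142387938 minus strand for Ctsd, chr7:88277922-88277981 plus strand for Ctsc and chr3:95526753-95526791 plus strand for Ctss.
Ctsa: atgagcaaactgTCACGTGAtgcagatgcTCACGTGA
Ctsd: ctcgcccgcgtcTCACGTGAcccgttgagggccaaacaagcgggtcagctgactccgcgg
Ctsc: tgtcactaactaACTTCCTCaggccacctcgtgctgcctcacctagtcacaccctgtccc
Ctss: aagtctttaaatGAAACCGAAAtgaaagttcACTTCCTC

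These motifs were picked after the sequences had been seen. TCACGTGA, which contains CACGTG, was in 0.974% of 32851 promoters, and in those of Ctsa and Ctsd. CACGTG was in 7.15%, and in Ctsa, Ctsd and Ctsl. GAGGAAGT, whose reverse complement is ACTTCCTC, was in 3.20%, and in Ctsc and Ctss. The interferon response core was in 3.44%, and in Ctss. Of the other letters searched, TCACGTGA extended by G before and C after, and TGANTCA, were in no member. The first of these was in 0.326% of promoters and the other in 7.81%. TATAAA (13.6% of promoters) was in Ctss, CCAAT (37.4%) in Ctsz, and GGGCGG (35.7%) in Ctsc, Ctsd, Ctss and Ctsz. GAGGAA (28.3%) and GGAAGT (23.8%), both contained in GAGGAAGT, were in Ctsc, Ctsk and Ctss, and GGAAGT also in Ctsa. A match describes letters in these windows and no binding.

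The 3 other cysteine cathepsins listed, Ctsf, Ctso and Ctsw, had no call. Ctsf, the brightest of them, had a ratio of -0.59 (limma, adjusted p = 0.0427), under 2-fold. None of the 8 rodent placental cathepsins listed was among the genes tested. Among 16 of 21 cystatins, stefins and related inhibitors tested, 3 were called higher and 2 lower, with a median ratio of 0.25. Cst8, a cystatin known from the reproductive tract, had log2 signals of 6.30, 5.88 and 6.08 in the tumours and 10.96, 10.91 and 10.89 in the pool. Its ratio was -4.84 ± 0.19 (SD, n = 3 arrays; limma, adjusted p = 0.00028). Cst11, another such cystatin, was not well above background in any tumour, at mean log2 signals of 5.67 in the tumours and 8.58 in the pool, and was at least 7.53-fold lower (limma, adjusted p = 0.000459).

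Fetub, a secreted protein with cystatin domains, was higher at 2.44 ± 0.59 (SD, n = 3 arrays; limma, adjusted p = 0.00313). The other 2 called higher, Stfa1 and Kng1, were named after their values were seen. In the pool both were dim on every array, not well above background. The bound was at least 4.10-fold higher for Stfa1 and at least 4.05-fold higher for Kng1. The call of Stfa1 was lost without replicate 1, at a ratio of 1.58 (limma, adjusted p = 0.0858), and without replicate 3, at 1.77 (limma, adjusted p = 0.137). The common inhibitors Cst3 (secreted cystatin C) and Cstb (cytosolic stefin B), were not called, at -0.57 and -0.27; spike-in centring gave 0.26 and 0.34, and median centring 1.10 and 1.18.

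Of 6 activation and partner proteins, 1 was called. Lgmn, the asparaginyl endopeptidase that processes several cysteine cathepsins, had log2 signals of 12.59, 12.89 and 13.19 in the tumours, against 10.64, 10.59 and 10.80 in the pool. The groups did not overlap, and the ratio was 2.21 ± 0.23 (SD, n = 3 arrays; limma, adjusted p = 0.000957). The Ctsa partners Neu1 and Glb1 had ratios of -0.88 and -0.37, neither called; both were positive with median centring, at 0.55 and 0.78. Neu1 was called lower without replicate 3, at -1.01 (limma, adjusted p = 0.0188). They were singled out for their role after values had been seen.

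Of 10 lysosomal sorting genes, 4 were called lower and none higher. Gga2, an adaptor that loads receptors into carriers at the Golgi, had log2 signals of 8.66, 8.62 and 8.29 in the tumours, against 12.18, 12.19 and 12.38 in the pool. No tumour came near the pool, and the ratio was -3.72 ± 0.31 (SD, n = 3 arrays; limma, adjusted p = 0.000553). Gnptg, a subunit of the enzyme that adds the mannose 6-phosphate tag, was lower at -1.30 (limma, adjusted p = 0.00178), and Sort1, a sorting receptor, at -1.16 (limma, adjusted p = 0.0179). Sort1 was not called without replicate 1, at -1.16 (limma, adjusted p = 0.0563), or without replicate 2, at -0.88 (limma, adjusted p = 0.0453). Sorl1, a related receptor named here to complete the count, was lower at -1.09 (limma, adjusted p = 0.00203) and was 0.08 with median centring. Gnptg and Sort1 were -0.07 and -0.05 with median centring, and neither was called there. The mannose 6-phosphate receptors Igf2r and M6pr had ratios of -0.10 and 0.20, not called; for Igf2r spike-in centring gave 0.24 and median centring 1.07.

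Of 13 lysosomal membrane proteins, 2 were called higher and none lower, with a median of -0.02. They were Laptm5, a lysosomal protein of blood cells, at 2.22 (limma, adjusted p = 0.000868), and Slc11a1, a metal transporter of phagocytes, at 1.45 (limma, adjusted p = 0.00588). Of 25 glycosidases, lipases and sulfatases, 2 were called higher and 1 lower, with a median of 0.16. Gusb, beta-glucuronidase, was higher at 1.64 (limma, adjusted p = 0.00311). Fuca1, alpha-L-fucosidase, was lower at -1.08 (limma, adjusted p = 0.00344), and it was 0.20 with median centring. Of 4 regulators of lysosomal genes, Mitf was called lower at -1.56 (limma, adjusted p = 0.00149), and Tfeb, at -0.54, was not; Tfeb was 0.20 with median centring. Over all these lists 16 of 77 genes tested were called, or 20.8%, near the 19.0% of all genes. With median centring 41 of the 77 were called, where 8303 of all 19437 genes were.

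**Figure D3:**
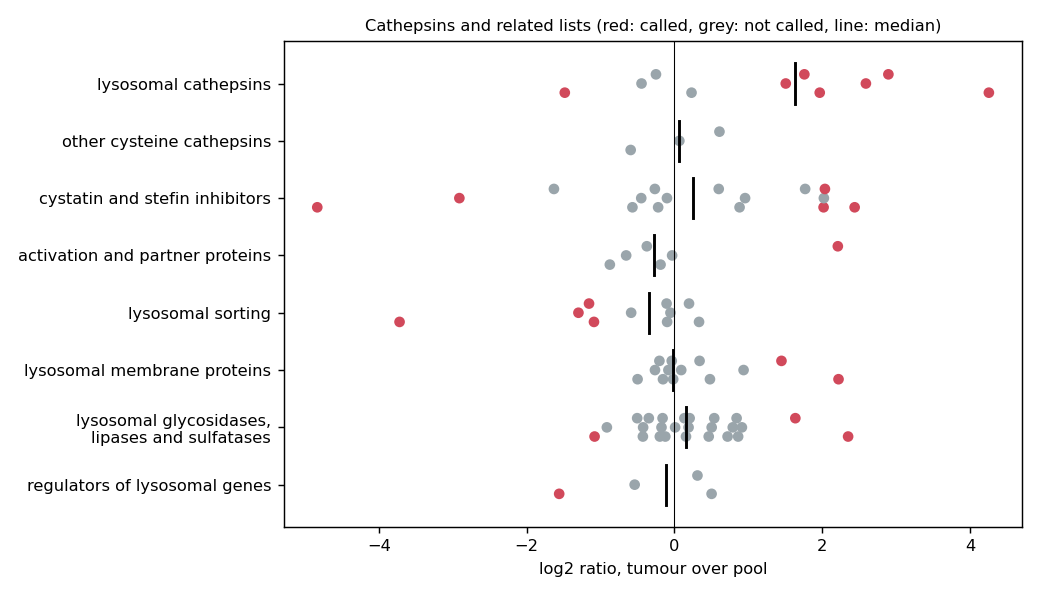
Log2 ratio of tumour over pool (horizontal axis) for the cathepsins and for each related list (rows), under loess normalisation. Each point is 1 gene, red where called, and the vertical line is the list's median, 1.63 for the cathepsins and -0.35 for the sorting genes; under median centring more genes lie to the right.

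Marker genes of several cell types also differed between tumours and pool. All 12 macrophage markers were called higher, with summed normalised signals of 26827 to 35723 in tumours and 5083 to 5705 in the pool, and medians of 2.14, 2.68 and 2.58 on arrays 1, 2 and 3. Fibroblast markers were higher for 7 of 8, at 45476 to 146674 in tumours and 15205 to 17459 in the pool, with medians of 2.88, 2.52 and 1.27 on arrays 1, 2 and 3. Neutrophil markers were higher for 6 of 9, at 48108 to 221917 in tumours and 12429 to 13228 in the pool. Such sums lean on the brightest genes. The brightest neutrophil marker in the pool was Csf3r, at a mean log2 signal of 13.46, and it was not called (ratio 0.80). Of 9 tested, 3 were not well above background in the pool, and the medians were 4.11, 2.31 and 2.11. The fibroblast and neutrophil medians were thus highest on array 1, as was the ratio of Ctsk. The median of the T and NK cell markers, at 0.98, 0.95 and 0.49, was highest there too. So were those of the parietal, chief, surface mucous and pancreatic acinar markers, all of them negative. Those of the dendritic cell, B cell, smooth muscle and general epithelial markers were highest on array 2, and that of the endothelial markers on array 3. Of the fibroblast markers, Lum and Postn were instead highest on array 2. The median of the osteoclast markers, at 0.43, 0.80 and 0.92, was lowest on array 1. The part of all these markers in the cathepsin results was not tested.

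Of 5 osteoclast markers tested, 1 was called higher, and Calcr was not tested. The summed signals of the 5 were 16267 to 22745 in tumours and 10170 to 10589 in the pool. The brightest of them in the pool was Acp5, at a mean log2 signal of 13.23, and it was not called (ratio 0.86). Dendritic cell markers were higher for 2 of 4, B cell markers for 3 of 4, and T and NK cell markers for 2 of 5. Endothelial markers were higher for 2 of 5 and smooth muscle markers for 4 of 5. Of the surface mucous markers, 5 of 6 were called lower, with a median of -4.67. Their summed signals were 55121 to 98734 in tumours and 1085090 to 1427290 in the pool. Parietal and chief cell markers were lower for 5 of 5 each, with medians of -6.61 and -4.92. Pancreatic acinar markers were lower for 4 of 5, with a median of -6.52. General epithelial markers were higher for 2 and lower for 2 of 5, with a median of -0.13. In whole tissue, fewer cells of a type and less RNA per cell cannot be told apart, and the part of these markers was not tested.

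The genes nearest to a member were found over the 3 ratios by Euclidean distance among 11788 genes. Among those nearest to Ctss were Mgp at a distance of 0.62 and Pi16 at 1.03. Nearest to Ctse were Irx2 at 0.15, Mfsd6 at 0.20 and Rap1gap at 0.22. With 3 arrays that share the pool, this is a description.

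**Figure D4:**
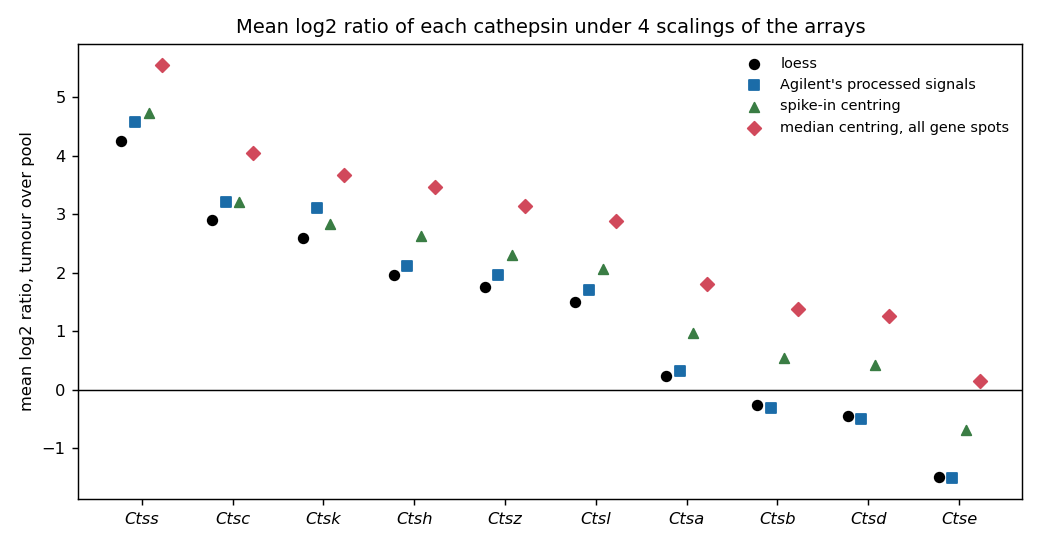
Mean log2 ratio of tumour over pool (vertical axis) of each cathepsin under 4 scalings of the arrays (markers). The 6 members called higher stay above 1 under all 4, while Ctsb and Ctsd change sign with either of the centrings and Ctse with median centring.

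The median of all genes was 0.05 with loess, 0.04 with Agilent's processed signals, -0.07 after centring on spike-ins and 0.77 after median centring. Ctss, Ctsc, Ctsk, Ctsh, Ctsz and Ctsl were called higher under all of these, as the plot of 4 scalings shows. Relative to the all-gene median, the ratios under median centring were 0.62 for Ctsb, 0.50 for Ctsd and -0.61 for Ctse, where loess gave -0.30, -0.49 and -1.53. Among called genes, 49.1% were higher with loess and 93.3% with median centring. Because 1 pool served as the only control, variation among normal mice is not part of the test, and with 1 dye orientation a dye effect stays in every ratio.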

How the data were processed

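The arrays are 2-colour Agilent arrays, with 250 ng of total RNA per labelling and an RNA integrity number above 7, per the labels. The deposited scanner files give intensity for each spot, of which the mean signal and the median background were used. The submitters' processing notes name Feature Extraction 9.5.3, whereas the headers of the files name 10.7.3.1. The deposited log10 ratio sets red processed signal over green. Log2 ratios are in the authors' deposited table of values; at 99.8 to 99.9% of filled probes they were within 0.01 of the scanner ratio on the log2 scale, which fixes scale and direction. Its medians were -0.15, -0.13 and -0.11 on arrays 1, 2 and 3, with no further centring seen.

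Of 39429 probes, 26055 were named through a RefSeq accession (GRCm38.p6, names only) and the rest kept the file's name. Of 43020 gene spots per array, 64.0 to 66.8% were well above background in red and 52.5 to 54.2% in green, and none was saturated. Signals were corrected with normexp at an offset of 50 and normalised by loess within arrays, controls given weight 0, using limma 3.58.1 (R 4.3.3). The 157, 167 and 190 flagged spots were left out. A probe was kept if it was well above background in 1 channel on all 3 arrays (24170 probes), and the brightest kept probe stood for its gene (19437 genes). Two-sided tests of the ratios against 0 used lmFit and eBayes, and p-values were adjusted by Benjamini-Hochberg over all genes, or over all probes for probes. The test was tried on simulated data. Channel levels are after loess and Aquantile; a bound ("at least") uses, per array, the dim probe's own signal or, if higher, the lowest among probes well above background, and is open to dye bias. The offset pulls dim ratios towards 0.

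The members and lists were chosen with earlier results of these data known. Genes named are all members and, per list, up to 3 called genes with the largest absolute ratio or, with none called, the brightest; exceptions are stated, and some genes that the rule selects are not reported here. The nearest genes had to carry a symbol, have signal well above background in red and in green on every array, and be neither a clone nor an antigen receptor segment. The alternatives were the offset, Agilent's processed signals, the authors' values, 3 other centrings, 2 other filters, the median of a gene's probes and leaving out each replicate.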

Additional observations from a re-analysis of the deposited data

How the results depend on the processing

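The 6 cathepsins called higher were called higher under every alternative run, except Ctsh without replicate 2 and without replicate 3. Member calls were 6 to 7 on leaving out a replicate (higher 5 to 6, lower 1), all-gene calls 3437 to 3606 (higher 1660 to 1685, lower 1777 to 1921), list calls 14 to 20 (higher 7 to 10, lower 7 to 10), the member median 1.53 to 1.67 and the probe median 0.86 to 0.88. Calls among all genes numbered 3696, of which 1814 were higher and 1882 lower. They were 6819 with Agilent's processed signals (3740 higher, 3079 lower), 8303 with median centring (7747 higher, 556 lower) and 5743 with an offset of 0 (3192 higher); spike-in centring gave 2865 higher. No member was called lower by limma with spike-in or median centring. With median centring 9 members were called higher, Ctsa, Ctsb and Ctsd among them. Calls in the pathway lists were 30 with Agilent's processed signals (17 higher, 13 lower), 25 with spike-in centring (16 higher), 41 with median centring (38 higher, 3 lower) and 29 with an offset of 0 (18 higher). The member median was 2.18 with spike-in and 3.02 with median centring. For the probe median, Agilent's processed signals gave 1.31; it was 1.51 with spike-in centring, 2.35 with median centring, 1.71 with the authors' values and 1.51 with probes above background in both channels.

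The sign turned as follows. With spike-in centring Ctsb was 0.55, Ctsd 0.43, the dimmer Ctsa probe -0.65, Cst3 0.26, Cstb 0.34 and Igf2r 0.24. With median centring Ctsb was 1.38, Ctsd 1.26, Ctse 0.15, Ctsf 0.17, Cst3 1.10, Cstb 1.18, Neu1 0.55, Glb1 0.78, Sorl1 0.077, Igf2r 1.07, Fuca1 0.20 and Tfeb 0.20. The second Ctsd probe, at 0.00, was -0.026 with centring on the tested genes. Leaving out a replicate gave -0.076 to 0.10 for that probe and -0.33 to 0.20 for Igf2r. Spike-in centring also left Gnptg (-0.90), Sort1 (-0.89), Sorl1 (-0.76) and Fuca1 (-0.63) without a call, as the median of a gene's probes did for Sort1 (-0.97) and Fuca1 (-0.67). Stfa1 was not called when dim probes were kept in (limma, adjusted p = 0.055), nor was Mitf with median centring (-0.48), and Ctsf was called lower with Agilent's processed signals (-1.09). The cause was not tested. No paired analysis was possible because all arrays share 1 pool and no second group has replicate numbers. The slide as a block was not run, since all arrays lie on 1 slide. Between arrays the SD had a median of 0.22 for tumours, 0.07 for the pool and 0.21 for the ratio, over genes bright in both channels.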
